A study of Homo sapiens with 6 samples.

Results

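The untreated cells were cultures differentiated towards pancreatic progenitors and collected at the end of a step named S3, which ran from day 6 to day 8. They comprised 3 of the 6 libraries in the series, chosen by their label (Control 1, Control 2 and Control 3). The other 3 libraries came from cells given 2 µM of a compound known by the code K-3 over the same days, and are not compared here. All cultures derived from Ff-I01s01, a human induced pluripotent stem cell line of WT genotype, and the labels name the cells as pancreatic progenitors. A single line stands behind every value, and the labels do not state whether each library is a differentiation of its own, so the spread between them may be technical.

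The pancreas arises from the gut tube, an epithelium formed by the definitive endoderm. Retinoic acid patterns this tube, and low hedgehog signalling in its dorsal wall lets cells switch on PDX1, the homeobox factor that marks the pancreatic bud and the duodenum next to it. Bud cells later acquire NKX6-1 and PTF1A, and only then do NEUROG3-positive endocrine precursors and acinar cells appear. The neighbouring endoderm forms liver, stomach and intestine, and each of these neighbours has its own regulators and secreted products.

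Values were the authors' deposited FPKM, fragment counts scaled for exon length and library size, so levels of different genes are compared per unit of length. The libraries held 35334645 to 38773637 fragments assigned to genes, of which 97.6% to 97.8% fell on protein-coding genes and 1.64% to 1.78% on mitochondrial genes. At these depths 3 fragments on a gene of 1 kb correspond to 0.0772 to 0.0834 FPKM, a floor that covers counting error only. Of 19906 protein-coding genes outside chromosome Y, 11160 (56.1%) had a mean of 1 FPKM or more over the 3 libraries, the level called detected below. A further 2761 (13.9%) had no fragment in any library, and 262 reached 100 FPKM. Means are over the 3 libraries, and ± gives the SD (n = 3 libraries). In bulk RNA a low level can mean few cells of a type or little RNA in each cell, and these cannot be told apart.

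The 7 genes taken as markers of these cells were all detected, at widely different levels. GATA4, a zinc finger factor of early endoderm and heart, had 161 FPKM in Control 1, 149 in Control 2 and 144 in Control 3, a mean of 151 ± 8.32 FPKM. Its relative GATA6 had 119.6 FPKM in Control 1, 109.5 in Control 2 and 107 in Control 3, a mean of 112 ± 6.8 FPKM. FOXA2, the forkhead factor that opens chromatin at endodermal genes, had 103 FPKM in Control 1, 95.8 in Control 2 and 98.4 in Control 3, a mean of 98.9 ± 3.42 FPKM. Control 1 was the highest library for each of these, by a small margin. HHEX, a homeobox factor of the foregut needed for ventral pancreas and liver, had 92.2 FPKM in Control 1, 84.4 in Control 2 and 91.6 in Control 3. SFRP5, a secreted Wnt inhibitor of ventral foregut endoderm, had 94.5 FPKM in Control 1, 102 in Control 2 and 80.6 in Control 3. PDX1 lay well below these, with 13.7 FPKM in Control 1, 17.8 in Control 2 and 11.6 in Control 3, a mean of 14.3 ± 3.16 FPKM from 1307, 1727 and 1040 fragments. CYP26A1, the enzyme that degrades retinoic acid, was the only marker whose libraries stood far apart, with 62.4 FPKM in Control 2, against 12.3 in Control 1 and 8.29 in Control 3. Its mean of 27.6 FPKM became 10.3 FPKM without Control 2, so no single level describes it. By these markers the cells were endodermal and carried PDX1 message, with PDX1 far below GATA4, GATA6 and FOXA2. The labels call them pancreatic progenitors, and NKX6-1, which defines later progenitors, had no fragment.

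**Figure D1:**
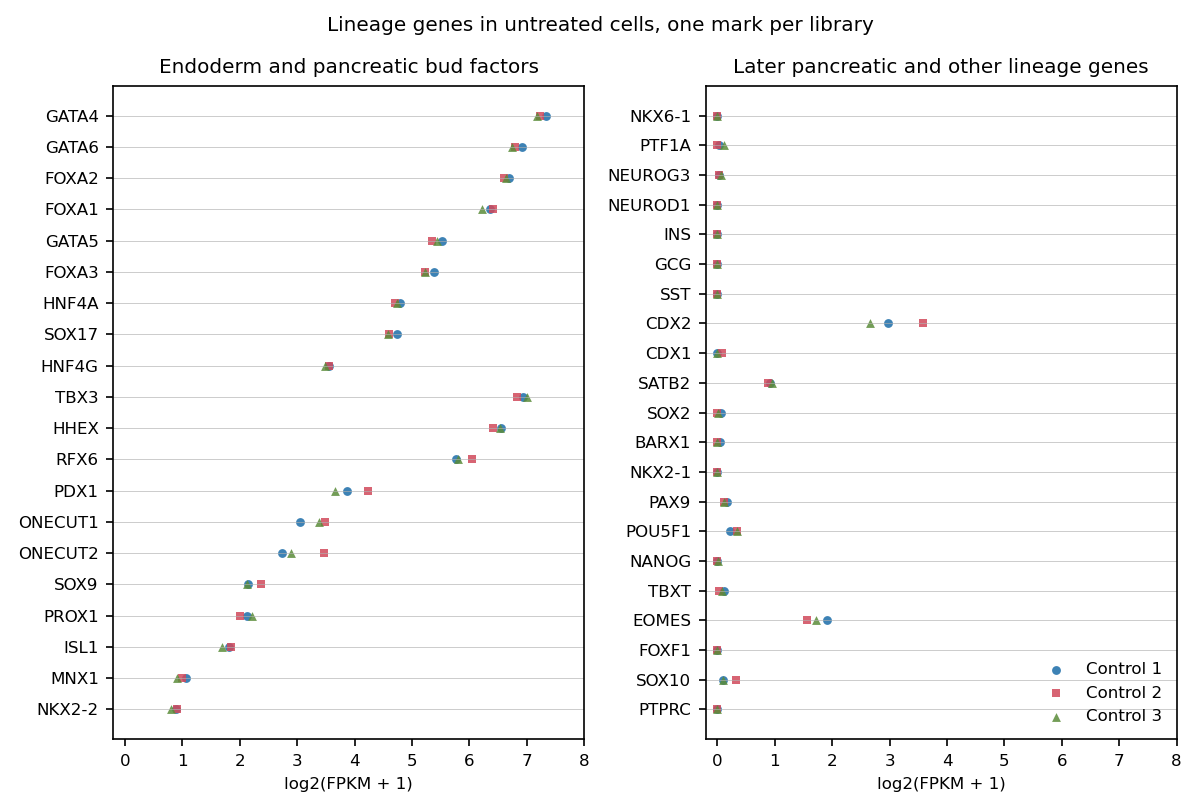
Each mark is 1 untreated library, placed by log2(FPKM + 1) on the horizontal axis, with endoderm and pancreatic bud factors on the left and later pancreatic or other lineage genes on the right. GATA4 (151 FPKM on average) to HNF4G (10.6 FPKM) sit far above NKX6-1, INS and NKX2-1, which had no fragment, and Control 2 is the highest of the 3 libraries for PDX1 and CDX2.

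The listed general endoderm factors were detected throughout. All 13 listed endoderm factors were detected, 11 of them at 10 FPKM or more, with a median of 37.9 FPKM against a median of 1.96 FPKM over all protein-coding genes. The share of all protein-coding genes detected, 56.1%, is the background for this and every count of detected genes below. For counts at 10 FPKM or more the background is 21.5%. The lists and families were made with earlier results of these data known, so their shares are descriptions and not tests. After GATA4, GATA6 and FOXA2 came FOXA1 at 79.5 ± 5.24 FPKM, KLF5 at 52.6 ± 2.58 FPKM and GATA5 at 42.5 ± 2.57 FPKM. HNF4A, a nuclear receptor of liver, gut and islet, had 26.8 FPKM in Control 1, 24.9 in Control 2 and 25.8 in Control 3. It was nearly equal in the 3 libraries.

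Among the 1542 protein-coding genes that the deposited table assigns to a transcription factor family, 952 (61.7%) were detected and 258 (16.7%) reached 10 FPKM. Over all protein-coding genes these shares were 56.1% and 21.5%, so the factors lay above at 1 FPKM and below at 10 FPKM. The families differed widely. Zinc finger genes of the C2H2 type were detected in 478 of 626 cases, and GATA-type genes in 11 of 13. By contrast 43 of 190 homeobox genes (22.6%), 35 of 101 basic helix-loop-helix genes, 5 of 17 T-box genes, 3 of 16 Pou genes and 0 of 9 PAX genes were detected. The highest homeobox genes were HHEX at 89.4 ± 4.35 FPKM, PBX2 at 71.5 ± 3.83 FPKM and TGIF2 at 38.1 ± 1.45 FPKM, with PDX1 the eighth. The highest of all assigned factors were HMGA1 at 531 ± 37.2 FPKM and YBX1 at 401 ± 33.5 FPKM, general chromatin and RNA-binding proteins of dividing cells.

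Pancreatic bud factors were present in part. Of 18 listed, 10 were detected, 4 of them at 10 FPKM or more. Both counts lie near the shares over all protein-coding genes, 56.1% and 21.5%. TBX3, a T-box repressor expressed in liver and pancreas primordia, had 121 FPKM in Control 1, 112 in Control 2 and 127 in Control 3. RFX6, a winged helix factor of gut endoderm that later acts in islets, had 53.4 FPKM in Control 1, 65 in Control 2 and 54.5 in Control 3. Both exceeded PDX1 in every library. The Onecut factor ONECUT1 (HNF6), which lies upstream of endocrine precursors, had 7.33 FPKM in Control 1, 10.2 in Control 2 and 9.4 in Control 3, and ONECUT2 had 5.63 FPKM in Control 1, 10.1 in Control 2 and 6.47 in Control 3. SOX9, the factor that maintains the later progenitor pool, was low at 3.65 ± 0.437 FPKM, as were PROX1 at 3.34 ± 0.316 FPKM and ISL1 at 2.45 ± 0.194 FPKM. MNX1, needed for the dorsal bud, and NKX2-2 lay just under detection, at 0.99 ± 0.106 and 0.827 ± 0.072 FPKM. NKX2-2 shares 30.5% of its exon bases with other genes, NKX2-2-AS1 the most, so its place under detection is uncertain.

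The factors of the next pancreatic step were at or near 0. NKX6-1, which separates the endocrine and ductal progenitors from acinar ones, had no fragment in any library. PTF1A, the acinar determinant, had 1, 0 and 5 fragments, a mean of 0.0338 FPKM. NEUROG3, which starts endocrine differentiation, had 1, 1 and 2 fragments. Of 17 endocrine lineage factors, 4 were detected, among them IRX1 at 8.24 ± 0.859 FPKM, RFX3 at 2.97 ± 0.403 FPKM and IRX2 at 2.11 ± 0.134 FPKM. NEUROD1 and FEV had no fragment. None of 12 hormone and islet secretory genes was detected, and INS, GCG, SST, PPY and PCSK2 had no fragment. INS shares 31.7% of its exon bases with other genes, the read-through gene INS-IGF2 the most. Fragments on such bases may not have been assigned to INS. The highest of this list was IAPP at 0.157, 0.178 and 0.308 FPKM in Controls 1, 2 and 3.

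Mature exocrine genes were likewise few. Among 10 acinar enzymes only PRSS1, a trypsinogen with near-identical relatives, passed 1 FPKM, at 1.58 ± 0.059 FPKM, and CTRB1, PNLIP, AMY2A and GP2 had no fragment. Of 10 ductal genes, 5 were detected. KRT19, a keratin of duct and other simple epithelia, had 766 FPKM in Control 1, 641 in Control 2 and 714 in Control 3, while the ductal KRT7 and SPP1 stood at 0.0564 and 0.0112 FPKM. CFTR, the chloride channel of ducts, averaged 1.97 ± 0.198 FPKM and carbonic anhydrase CA2 8.74 ± 0.742 FPKM.

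Secreted products usually associated with yolk sac and fetal liver were among the most abundant messages of these cells. Of 19 liver-type genes, 14 were detected, 6 of them above 100 FPKM. TTR, a carrier of thyroid hormone and retinol-binding protein, had 1513 FPKM in Control 1, 1268 in Control 2 and 1391 in Control 3. AFP, the fetal serum protein, had 891 FPKM in Control 1, 953 in Control 2 and 777 in Control 3. Both stood among the 15 most abundant nuclear protein-coding genes. APOA1 averaged 392 ± 22.9 FPKM, APOA2 357 ± 36.8 FPKM, VTN 218 ± 26.3 FPKM and the fibrinogen chain FGB 199 ± 34.4 FPKM. The other fibrinogen chains were lower, FGA at 19.6 ± 1.24 FPKM and FGG at 4.25 ± 0.506 FPKM. Albumin, the main product of hepatocytes, had only 3.2 FPKM in Control 1, 2.06 in Control 2 and 2.76 in Control 3, and TF, APOH, AHSG and CYP3A7 averaged under 0.1 FPKM. The list therefore split, with abundant TTR, AFP and apolipoproteins beside scarce albumin and no detected transferrin. Whether the same cells carry PDX1 and these secreted products cannot be read from bulk libraries.

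The 15 most abundant nuclear protein-coding genes otherwise held general genes. FTL, a ferritin chain, led at 3151 ± 141 FPKM, followed by the elongation factor EEF1A1 at 2783 ± 148 FPKM, ACTG1 at 1783 ± 103 FPKM and TMSB10 at 1714 ± 133 FPKM. APOE came next at 1415 ± 150.5 FPKM and TTR at 1391 ± 122 FPKM. ACTB, MDK (the growth factor midkine), EEF2, RPS2, AFP, RPL13A, RPL41, SLC2A3 and FN1 followed, between 817 and 1013 FPKM. SLC2A3, a high-affinity glucose transporter, thus stood at 850.2 ± 108 FPKM, while its relative SLC2A1 averaged 2.5 ± 0.536 FPKM. Of 12 hypoxia and glycolysis genes, 10 were detected, with ENO1 highest at 135 ± 8.65 FPKM.

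Most listed genes of the neighbouring gut regions were below detection. Of 13 intestinal genes, 3 were detected. VIL1, a protein of the brush border, had 31.1 FPKM in Control 1, 27.9 in Control 2 and 28.2 in Control 3, and the homeobox gene ISX had 11.6 FPKM in Control 1, 14.9 in Control 2 and 10.7 in Control 3. CDX2, which specifies hindgut, had 6.81 FPKM in Control 1, 10.9 in Control 2 and 5.31 in Control 3, and was ordered across the libraries as PDX1 was. CDX1 averaged 0.0195 FPKM, and the intestinal products MUC2, OLFM4 and FABP2 had no fragment. CDX2 and PDX1 lie in the ParaHox cluster of GRCh38, CDX2 on chromosome 13, 27962137 to 27971139, minus strand, and PDX1 on chromosome 13, 27920020 to 27926231, plus strand. The third member, GSX1, had no fragment, and the neighbours URAD and FLT3 averaged 0.132 and 0.0782 FPKM. PAN3, the next gene beyond FLT3 on this list and part of a deadenylase, had 11.8, 11.9 and 11.9 FPKM, a nearly constant level. None of 11 gastric genes was detected, SOX2, the factor of anterior foregut and stomach, averaging 0.0211 FPKM. Of 11 lung, thyroid and pharyngeal genes, TBX1 at 12.2 ± 0.143 FPKM and IRX1 were detected, and NKX2-1, FOXE1, SFTPC and FOXN1 had no fragment.

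HOX genes, which encode position along the body axis, were mostly below detection. Of 39 HOX genes, 3 were detected and 32 averaged under 0.1 FPKM, with 22 at no fragment at all. Among the detected ones were HOXB2 with 8.34 FPKM in Control 2, against 5.29 in Control 1 and 4.52 in Control 3, and HOXA3 with 2.14 FPKM in Control 2, against 1.2 in Control 1 and 1.23 in Control 3. Both lie toward the 3' ends of their clusters, which are expressed first and most anteriorly. Control 2 was the highest library for both.

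Genes of pluripotent cells divided between a core below detection and a detected remainder. POU5F1, NANOG and SOX2, the core factors, had 0.233, 0.00172 and 0.0211 FPKM, and PRDM14 and UTF1 had no fragment. POU5F1 has several near-identical processed copies, so its low level is uncertain. Of the 14 listed genes, 9 were nonetheless detected. LIN28A, an RNA-binding inhibitor of let-7 maturation, had 378 FPKM in Control 1, 345 in Control 2 and 347 in Control 3, and LIN28B averaged 13.3 ± 0.208 FPKM. SALL4 stood at 27 ± 0.0752 FPKM, DNMT3B at 18.7 ± 0.887 FPKM and DPPA4 at 11 ± 0.079 FPKM, each nearly equal in the 3 libraries. LIN28A, LIN28B and SALL4 are also known from fetal tissues.

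Genes of the primitive streak and definitive endoderm, the stage before the gut tube, were detected in 11 of 15 cases. KIT averaged 25.3 ± 0.465 FPKM and SOX17 23.9 ± 1.48 FPKM, while CXCR4, the receptor commonly used to sort definitive endoderm, was at 5.75 ± 0.24 FPKM. NODAL, the ligand that induces endoderm, had 8.06 FPKM in Control 2, against 11.5 in Control 1 and 11.8 in Control 3. CER1, an antagonist of NODAL, had 0.742 FPKM in Control 2, against 1.88 in Control 1 and 2.36 in Control 3, and LEFTY2, another, averaged 7.57 ± 0.878 FPKM. EOMES was low at 2.33 ± 0.401 FPKM, and TBXT and GSC averaged 0.0507 and 0.144 FPKM.

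Markers of other germ layers were nearly all below detection. Of 24 mesoderm and mesenchyme genes, 2 were detected, PDGFRA at 19.1 ± 0.676 FPKM and COL1A1 at 4.65 ± 0.786 FPKM. COL1A2, which forms type I collagen together with COL1A1, averaged 0.572 FPKM, PDGFRB 0.305 FPKM and TWIST1 0.162 FPKM, and FOXF1, TWIST2, TBX18 and TCF21 had no fragment. PDGFRA is also known from extraembryonic and definitive endoderm. None of 10 endothelial genes was detected, the highest being SOX18 at 0.166 FPKM and VWF at 0.166 FPKM. None of 10 blood genes was detected, with ITGA2B highest at 0.349 FPKM and PTPRC at no fragment. Of 18 neural and neural crest genes only NES, an intermediate filament of many progenitors, was detected, at 7.65 ± 0.297 FPKM, and SOX1, OLIG2, PAX7 and NEUROG2 had no fragment. Over the 339 genes on the lineage, surface and signalling lists, 153 (45.1%) were detected, against 56.1% of all protein-coding genes. On all 29 lists, 42 genes had no fragment in any library. For these, 3 fragments would have given 0.00610 to 0.135 FPKM, depending on gene length and library.

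**Figure D2:**
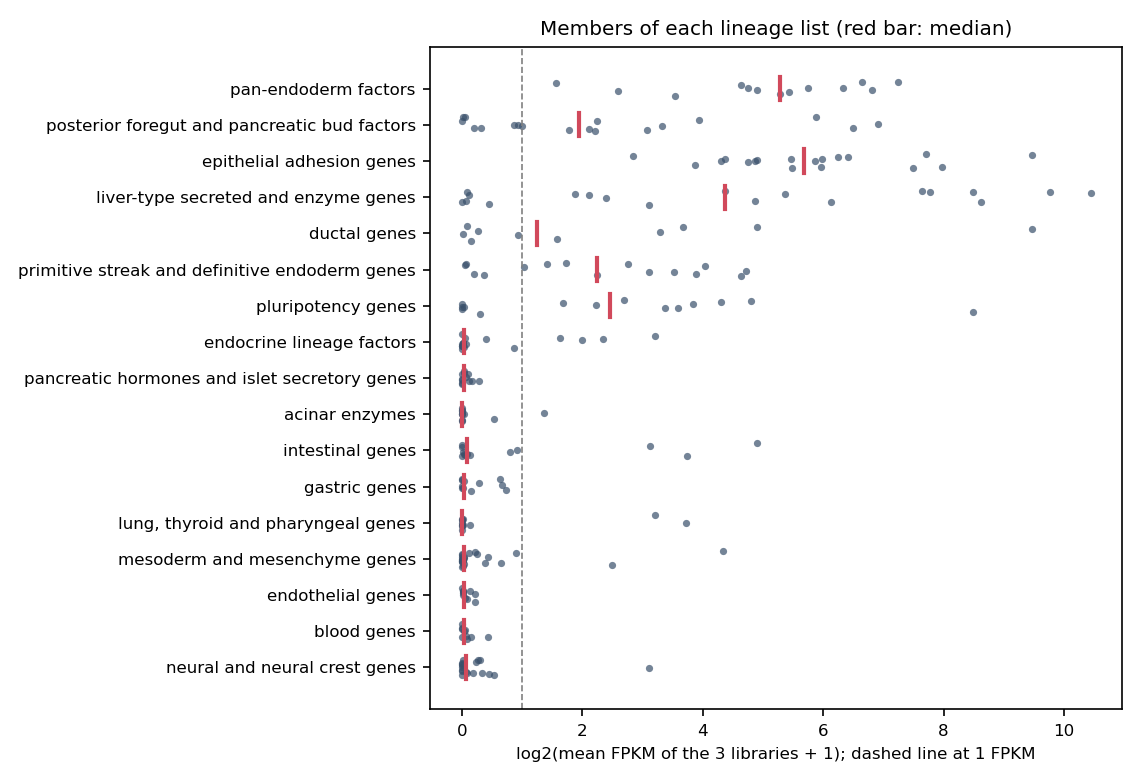
Each dot is 1 gene of a lineage list, placed by log2(mean FPKM of the 3 untreated libraries + 1), with a red bar at the list median and a dashed line at 1 FPKM. All 13 endoderm factors and all 18 epithelial genes lie right of the line, while 0 of 12 hormone and islet secretory genes, 0 of 11 gastric, 0 of 10 endothelial and 0 of 10 blood genes do.

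In the hedgehog pathway, ligand and target were far apart. IHH, the ligand of gut epithelium, had 235 FPKM in Control 1, 228 in Control 2 and 209 in Control 3, and SMO, the signal transducer, averaged 39.7 ± 2.29 FPKM. SHH stood at 0.986 ± 0.138 FPKM. The target and receptor PTCH1 averaged 2.8 ± 0.155 FPKM, and GLI1, the target most often used as a readout of hedgehog activity, had 8, 3 and 1 fragments. HHIP, another target, averaged 0.0366 FPKM. Of the 13 genes of the pathway, 6 were detected.

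Frizzled receptors were detected more often than Wnt ligands, and some secreted Wnt inhibitors were high. Of 19 Wnt ligands, 3 were detected, WNT11 at 18.8 ± 2.94 FPKM, WNT3 at 3.23 ± 0.233 FPKM and WNT5B at 2.02 ± 0.0948 FPKM. Of 10 frizzled receptors, 8 were detected, with FZD7 at 141 ± 7.18 FPKM, FZD4 at 68.1 ± 3.37 FPKM and FZD5 at 64.9 ± 2.63 FPKM. The secreted inhibitors SFRP5, SFRP1 and FRZB averaged 92.4, 81.6 and 61.2 FPKM. AXIN2, the common feedback target of Wnt signalling, averaged 3.53 ± 0.267 FPKM and LEF1 0.586 ± 0.0585 FPKM, and DKK2 and DKK4 had no fragment. Of the 19 antagonists and feedback genes, 9 were detected, a share below the 56.1% of all protein-coding genes.

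Feedback genes of BMP signalling were abundant. BMP2, a ligand, had 65.6 FPKM in Control 2, against 86.5 in Control 1 and 84.6 in Control 3. The targets ID1, ID3, ID2 and ID4, which block basic helix-loop-helix factors, averaged 259 ± 25.6, 206 ± 15.4, 187 ± 11.3 and 56.1 ± 6.12 FPKM. The inhibitory SMAD6 and SMAD7 averaged 52.1 ± 6.72 and 49.7 ± 4.87 FPKM, and BAMBI, a decoy receptor, 83.4 ± 6.03 FPKM. NOG, the BMP antagonist often added to cultures at this stage, averaged 0.278 FPKM. Of the 17 genes of this list, 13 were detected. Of 21 BMP and GDF ligands, 5 were detected, BMP7 being the next after BMP2 at 14.7 ± 1.42 FPKM.

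All 4 FGF receptors were detected, FGFR3 at 87 ± 6.47, FGFR4 at 67 ± 2.37, FGFR1 at 32.1 ± 1.4 and FGFR2 at 18.9 ± 0.931 FPKM. Of 22 FGF ligands, only FGF8, FGF13 and FGF12 were detected, each averaging under 2 FPKM. Among the feedback genes of ERK signalling, DUSP4 was high at 65.5 ± 5.44 FPKM and DUSP6 and SPRY2 moderate at 6.55 ± 0.234 and 6.22 ± 0.339 FPKM. The ERK targets ETV4 and ETV5 stood at 0.0508 to 0.154 and 0.0192 to 0.0311 FPKM, below detection in every library. In the Notch pathway 10 of 17 genes were detected, NOTCH3 at 45.6 ± 2.28, NOTCH2 at 26.9 ± 0.42, the ligand DLL1 at 22.2 ± 1.12 and the targets HES4 and HES1 at 47.7 ± 6.73 and 25.9 ± 1.93 FPKM, while HES5 had no fragment.

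Genes of dividing cells were detected throughout. All 12 G2 and M phase genes were detected, TOP2A at 43.3 ± 2.31 FPKM and CCNB1 at 33 ± 1.68 FPKM being the highest. MYC, an immediate target of many growth signals, averaged only 0.114 ± 0.0437 FPKM. Of 10 immediate early genes, 5 were detected, led by JUN at 24.9 ± 1.38 FPKM, and FOS averaged 0.383 ± 0.205 FPKM. Of 11 ATF4 response genes, which include enzymes of serine and asparagine synthesis, 10 were detected, led by PHGDH at 33.4 ± 0.535 FPKM.

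Of 17 genes for retinoic acid synthesis, transport, breakdown and reception, 11 were detected. The synthesizing enzyme ALDH1A1 averaged 96.4 ± 8.05 FPKM, while ALDH1A2, the main enzyme of the embryonic mesoderm, averaged 0.0122 FPKM and ALDH1A3 0.0802 FPKM. CRABP2, which carries retinoic acid to its receptors, stood at 157 ± 16.3 FPKM. Among the receptors RXRA averaged 20.9 ± 0.848, RARB 19.1 ± 2.87 and RARA 8.46 ± 0.414 FPKM, and RARG was below detection at 0.556 FPKM. CYP26A1 and RARB are textbook direct targets of the receptors, and DHRS3, an enzyme that returns retinal to retinol, is induced by retinoic acid. RARB had 22.4 FPKM in Control 2, against 17.3 in Control 1 and 17.5 in Control 3, and DHRS3 had 25.2 FPKM in Control 2, against 18.7 in Control 1 and 15.6 in Control 3. Control 2 was thus the highest library for CYP26A1, RARB and DHRS3, by very different margins. The breakdown enzymes CYP26B1 and CYP26C1 had 0.0284 FPKM and no fragment.

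The promoters of CYP26A1 and RARB are shown because both genes were highest in Control 2 and both windows hold a repeat of the kind that retinoic acid receptors are known to bind. The sequences come from RefSeq on GRCh38.p14 and end 1 base before the annotated start, on the plus strand, at chr10:93073643-93073892 for CYP26A1 and chr3:25428013-25428262 for RARB. Both windows lie inside the span of the deposited gene, which starts at 93073475 for CYP26A1 and at 25174332 for RARB, since the windows precede the starts of inner transcripts. Capitals mark a direct repeat of a 6-base receptor site (AGGTCA, its close variants AGTTCA as well as GGGTCA, or the fourth form GGTTCA) with 5 bases between the copies, searched on both strands.
CYP26A1: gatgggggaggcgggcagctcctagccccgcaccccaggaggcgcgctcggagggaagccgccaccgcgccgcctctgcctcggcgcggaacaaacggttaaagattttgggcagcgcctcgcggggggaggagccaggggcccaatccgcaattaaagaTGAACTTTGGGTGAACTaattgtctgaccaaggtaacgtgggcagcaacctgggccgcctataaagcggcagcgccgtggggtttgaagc
RARB: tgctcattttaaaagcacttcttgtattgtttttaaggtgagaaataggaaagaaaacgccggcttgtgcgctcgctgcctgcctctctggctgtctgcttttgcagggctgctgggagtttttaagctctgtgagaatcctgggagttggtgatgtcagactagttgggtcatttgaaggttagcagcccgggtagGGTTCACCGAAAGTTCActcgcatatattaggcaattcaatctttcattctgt
The repeat lies 90 to 74 bases before the start in CYP26A1, in 1 of its 2 RefSeq promoter entries, and 53 to 37 bases before the start in RARB, in 1 of its 4 entries. It occurred in 31 of 35116 promoter windows (0.0883%), which run from 250 bases before to 50 after the start, whereas a single such site occurred in 38.6%. The windows of GATA6, HHEX, SFRP5, CDX2 and DHRS3 held no such repeat, and no entry was found for PDX1, GATA4, FOXA2 or HOXB2. The 31 windows belong to 29 symbols. Of these, 15 are protein-coding genes in the table used here, and 8 of the 15 were detected. Apart from CYP26A1 and RARB these were ATXN1L, CFLAR, CYB5R2, FSCN2, PANK2 and PHF8. In these 6 the difference of Control 2 from the other libraries was 0.01 to 0.16 on the log2 scale. It was 2.51 in CYP26A1 and 0.35 in RARB, which were chosen for being highest in Control 2. That choice set this contrast in advance, and a part of the repeat in the Control 2 values was not tested. A match is a description of letters and not a measured binding site.

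Epithelial surface genes were high. All 18 epithelial adhesion genes were detected, 17 at 10 FPKM or more, with a median of 50.5 FPKM. EPCAM, the adhesion molecule of most epithelia, had 269.7 FPKM in Control 1, 232 in Control 2 and 246 in Control 3. CLDN6, a tight junction claudin of embryonic epithelia, averaged 208 ± 15.5 FPKM and was the highest of 24 claudins, of which 9 were detected. Among 23 cadherins 6 were detected, and N-cadherin CDH2 exceeded E-cadherin CDH1 in each library. CDH2 had 273 FPKM in Control 1, 237 in Control 2 and 260.4 in Control 3. CDH1 had 64.7 FPKM in Control 1, 60.1 in Control 2 and 61.4 in Control 3.

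Of 90 genes named by a CD number, 22 were detected. CD24, a small glycosylated surface protein used to enrich pancreatic progenitors, had 846 FPKM in Control 1, 772 in Control 2 and 814 in Control 3. CD63 and CD99 followed at 102 ± 7.92 and 94.5 ± 7.41 FPKM. On a list of 12 surface markers reported for pancreatic progenitors in culture, 9 were detected, among them PROM1 at 47.8 ± 4.44 FPKM, FOLR1 at 20.3 ± 2.2 FPKM, ITGA6 at 16.6 ± 0.474 FPKM and CD200 at 12.7 ± 0.63 FPKM. GP2, the marker of later NKX6-1-positive progenitors, had no fragment, and ITGA4 averaged 0.00336 FPKM. The heparan sulphate proteoglycans were prominent, with 9 of 10 syndecans and glypicans detected, GPC3 at 317 ± 16.4 and SDC4 at 134 ± 9.2 FPKM. Integrins were detected in 12 of 30 cases, led by ITGB1 at 92.8 ± 4.2 FPKM. All 4 ERBB receptors were detected, ERBB2 at 26.9 ± 1.46 FPKM and ERBB4 with 19.9 FPKM in Control 2, against 28.7 in Control 1 and 31.9 in Control 3. Of 14 ephrin receptors 7 were detected, EPHB4 leading at 47.4 ± 2.17 FPKM, and of 20 chemokine receptors 2, ACKR3 at 8.38 ± 0.287 FPKM and CXCR4.

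Secreted gene families differed in the share of members detected. Against 56.1% of all protein-coding genes, semaphorins lay above and laminins near that share. Collagens, apolipoproteins, serpins and the metalloproteinase group lay below it, although single members were high. Of 20 semaphorins, a family with both secreted and surface members, 19 were detected. SEMA3E at 24.2 ± 2.57 FPKM and SEMA4C at 22.1 ± 1.04 FPKM were the highest. Basement membrane genes were high, with LAMB1 at 213 ± 12.8, LAMA1 at 72.2 ± 2.92 and LAMC1 at 63.4 ± 4.85 FPKM among 7 of 12 laminins detected. Among 44 collagens, 18 were detected, led by the basement membrane chains COL4A6 at 151 ± 15.8, COL4A1 at 140.2 ± 23.5 and COL18A1 at 137 ± 6.59 FPKM. Of 23 apolipoproteins, 9 were detected, and of 34 serpins 12, with the collagen chaperone SERPINH1 at 199.8 ± 16.8 FPKM. MMP14, a membrane-bound matrix protease, averaged 89.96 ± 9.41 FPKM among 7 of 27 metalloproteinases and inhibitors detected. In the insulin-like growth factor family, the binding protein IGFBP3 had 351 FPKM in Control 2, against 548 in Control 1 and 552 in Control 3, and IGFBP2 averaged 59.3 ± 7.42 FPKM. At the other end, 1 of 41 chemokines (CXCL17 at 1.14 ± 0.191 FPKM) and 4 of 38 interleukins were detected, IL32 at 2.31 ± 0.347 FPKM being the highest.

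**Figure D3:**
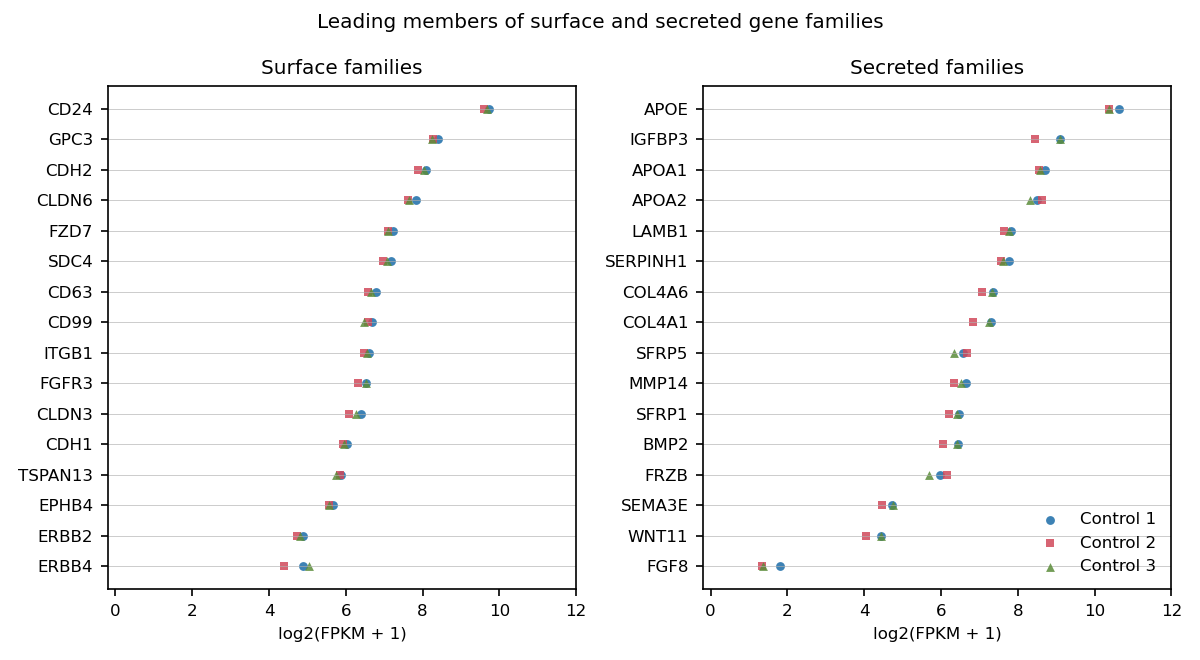
Each mark is 1 untreated library, placed by log2(FPKM + 1), for leading members of surface families on the left and secreted families on the right. CD24 (811 FPKM) and APOE (1415 FPKM) head their panels, and the Control 2 square is the farthest left for IGFBP3, ERBB4, COL4A1 and WNT11.

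The 3 libraries resembled each other closely. Over detected protein-coding genes, the correlation of log2(FPKM + 1) was 0.995 between Control 1 and Control 2, 0.996 between Control 1 and Control 3, and 0.996 between Control 2 and Control 3. These values are over genes that share a library and are a description only. The median coefficient of variation was 5.42%. It was 7.04% for genes of 1 to 5 FPKM, where counting error alone gives 4.27%, and 6.03% for genes of 100 FPKM or more, where counting error alone gives 0.627%. Of 7123 genes at 5 FPKM or more, 62 differed by over 1.5-fold between their highest and lowest library, and 11 of these by over 2-fold.

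Each library was then set against the mean of the other 2 on the scale of log2(FPKM + 1), which understates differences of low genes, and genes past 1.5-fold were counted among the 11160 detected ones. With 1 library on one side there is no replicate check, so these are descriptions of 3 libraries. Control 2 was higher for 30 genes (0.269%) and lower for 12 (0.108%). Control 1 was higher for 5 (0.0448%) and lower for 20 (0.179%). Control 3 was higher for 5 (0.0448%) and lower for 10 (0.0896%). By pairs, Control 2 was past 1.5-fold above Control 1 in 41 genes and below it in 15, and above Control 3 in 31 and below it in 16. Control 1 was above Control 3 in 10 genes and below it in 12. The counts for Control 1 and Control 3 thus rested on which library they were set against, and were largest against Control 2. Since each library also stands in the comparison group of the others, CYP26A1 is on 3 of these lists.

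CYP26A1 had the largest difference among the 30 genes higher in Control 2, 2.51 on the log2 scale. CYP26A1 shares 25.2% of its exon bases with other genes, AL358613.3 the most. Its 7204 fragments in Control 2 stood against 1390 in Control 1 and 886 in Control 3. PARM1, a mucin-like membrane protein, had 20.1 FPKM in Control 2, against 10.3 in Control 1 and 8.2 in Control 3. IGFBP6, a binding protein with preference for IGF2, had 46.7 FPKM in Control 2, against 26.8 in Control 1 and 19.1 in Control 3. Control 3 was the lowest library for both. VIM, the intermediate filament of mesenchyme and many cultured cells, had 61.6 FPKM in Control 2, against 38.6 in Control 1 and 29 in Control 3. VIM shares 24.4% of its exon bases with other genes, VIM-AS1 the most. PTGIS, the prostacyclin synthase, had 10.4 FPKM in Control 2, against 5.7 in Control 1 and 4.48 in Control 3, and PHLDA1 had 11.4 FPKM in Control 2, against 6.08 in Control 1 and 5.42 in Control 3. CDX2, HOXB2 and ONECUT2 were also past 1.5-fold. PDX1 was not, at a difference of 0.47 with 17.8 FPKM in Control 2, against 13.7 in Control 1 and 11.6 in Control 3.

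The list of mesoderm and mesenchyme markers stands beside VIM here. PDGFRA had 19.9 FPKM in Control 2, against 18.7 in Control 1 and 18.8 in Control 3. COL1A1 had 5.55 FPKM in Control 2, against 4.32 in Control 1 and 4.09 in Control 3. The other 22 members were below detection. The summed level of the whole list was 28 FPKM in Control 2, against 25.9 in Control 1 and 25.6 in Control 3. FOXF1, TWIST2, TBX18 and TCF21 were at 0 in each library, and the part of such cells in the VIM value was not tested.

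Of the 12 genes lower in Control 2, ANGPT1, a ligand of the endothelial receptor TEK, had 3.42 FPKM in Control 2, against 6.31 in Control 1 and 7.0 in Control 3. SEMA6D, a membrane semaphorin, had 4.5 FPKM in Control 2, against 6.98 in Control 1 and 8.83 in Control 3, and RGS8, a regulator of G protein signalling, 3.94 FPKM in Control 2, against 6.21 in Control 1 and 7.48 in Control 3. IGFBP3 was the most abundant of the 12, at a difference of -0.65 on the log2 scale. NPY, a neuropeptide, had 13.4 FPKM in Control 2, against 22.3 in Control 1 and 20.4 in Control 3, and VEGFC, a lymphatic growth factor, 3.94 FPKM in Control 2, against 6.3 in Control 1 and 6.87 in Control 3. CER1 and HAS2 from the definitive endoderm list were past 1.5-fold as well, HAS2 with 2.42 FPKM in Control 2, against 4.26 in Control 1 and 4.59 in Control 3.

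Control 1 differed in other genes. COMMD6, a COMM domain protein, was highest there with 17 FPKM in Control 1, against 9.14 in Control 2 and 8.86 in Control 3, and the mitochondrial MT-ND3, under 1.5-fold, had 1587 FPKM in Control 1, against 1120.4 in Control 2 and 1029 in Control 3. TMEM158 and ZNF669 followed at differences of 0.44 and 0.44 on the log2 scale. AC004556.1 lies on a scaffold outside the assembled chromosomes. TMEFF1 shares 75.9% of its exon bases with other genes, a read-through gene the most. The values of AC004556.1 and TMEFF1 are therefore uncertain. SCN7A, a sodium channel gene, was lowest in Control 1 with 7.48 FPKM in Control 1, against 18.8 in Control 2 and 13.1 in Control 3, and the phosphate transporter SLC34A3 had 4.94 FPKM in Control 1, against 9.67 in Control 2 and 9.22 in Control 3. NKTR, a cyclophilin-related protein, had 6.18 FPKM in Control 1, against 10.7 in Control 2 and 10.7 in Control 3. WSB1, a ubiquitin ligase adaptor, had 31 FPKM in Control 1, against 47.9 in Control 2 and 46.7 in Control 3, and LENG8 had 18.9 FPKM in Control 1, against 30.8 in Control 2 and 30.6 in Control 3. In SLC34A3, NKTR, WSB1 and LENG8 Controls 2 and 3 were nearly equal, whereas in SCN7A Control 3 lay between the other libraries. ZNF117 and ERV3-1, which overlap on chromosome 7, were both lowest in Control 1. ZNF117 had 7.37 FPKM in Control 1, against 13 in Control 2 and 13.2 in Control 3, and ERV3-1 had 6.82 FPKM in Control 1, against 11.8 in Control 2 and 13.2 in Control 3.

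Control 3 had the fewest genes past 1.5-fold. Because Control 2 is part of its comparison group, its list holds many genes already named. It was the highest library for SEMA6D, RGS8, ANGPT1, FST and ERBB4, and the lowest for CYP26A1, IGFBP6, PARM1, VIM and PTGIS. FST, an inhibitor of activin, had 8.39 FPKM in Control 3, against 6.85 in Control 1 and 5.16 in Control 2. Only CER1, DIO3, CBSL, TBC1D3E and BOLA2B were past 1.5-fold above the other libraries. DIO3, which inactivates thyroid hormone, had 3.4 FPKM in Control 3, against 2.75 in Control 1 and 0.833 in Control 2. CBSL and BOLA2B have near-identical copies elsewhere in the genome, so their values are uncertain. BOLA2B had 6.27 FPKM in Control 3, against 0.0959 in Control 1 and 0.151 in Control 2. The same holds for SMN1, GPR89A and MAGED4 among the genes higher in Control 1, and for GOLGA8A, MAGED4B and BOLA2B among those lower there. It also holds for CBS, SIK1B, EIF3C and MAGED4B among the genes higher in Control 2, and for MAGED4 and BOLA2B among those lower there. The counts past 1.5-fold include these genes. MAGED4 had 4.46 FPKM in Control 1, against 0.412 in Control 2 and 1.1 in Control 3, and its copy MAGED4B had 0.561 FPKM in Control 1, against 2.24 in Control 2 and 1.65 in Control 3.

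**Figure D4:**
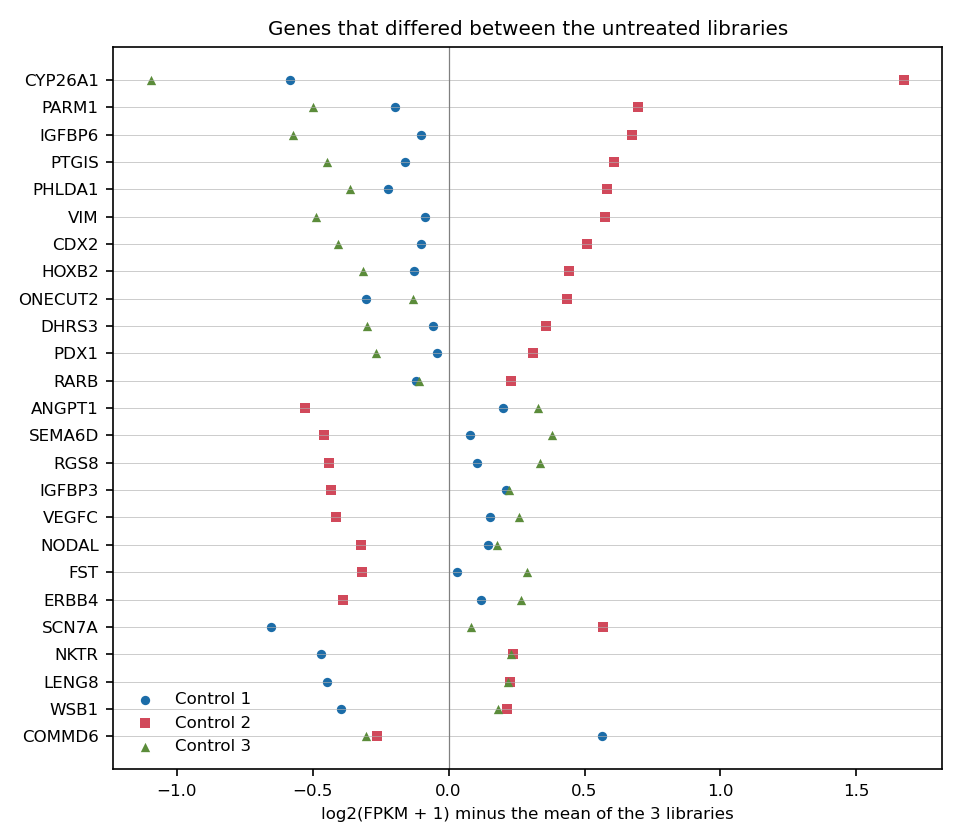
Each mark is 1 untreated library, placed by its log2(FPKM + 1) minus the mean of the 3 libraries, for genes named in the text. CYP26A1 spreads the most of those plotted, with Control 2 at 62.4 FPKM and Control 3 at 8.29 FPKM, the lowest rows show genes for which Control 1 stood apart, and ANGPT1 to ERBB4 are those lowest in Control 2.

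Small shifts ran through some gene lists. Among the 13 detected genes of BMP and TGF-beta feedback, 11 were lowest in Control 2, with a median difference of -0.23 from the other libraries on the log2 scale, against -0.02 over all detected genes. ID1 had 231 FPKM in Control 2, against 282 in Control 1 and 262 in Control 3, and SMAD6 had 45 FPKM in Control 2, against 58.4 in Control 1 and 52.8 in Control 3. Of the 10 detected ATF4 response genes, 9 were lowest in Control 2, with a median difference of -0.19. DDIT3, a stress-induced factor, had 7.49 FPKM in Control 2, against 9.94 in Control 1 and 8.21 in Control 3. Of 11 detected definitive endoderm genes, 8 were lowest in Control 2, at a median of -0.09. For comparison, 4400 of the 11160 detected genes were lowest in Control 2 and 2957 were highest there. In the other direction, 9 of 12 G2 and M phase genes were highest in Control 2, at a median of 0.10, and 6 of 11 retinoic acid genes, at a median of 0.11. These shifts were not particular to Control 2. In Control 3, 10 of 12 G2 and M phase genes were lowest (median -0.10), and 6 of 11 retinoic acid genes (median -0.11). Over all detected genes, 3850 of 11160 were lowest there. In Control 1, 9 of 13 BMP and TGF-beta genes and 8 of 10 ATF4 genes were highest. Of the 18 epithelial genes, 13 were highest in Control 1, at a median of 0.13 against 0.04 over all detected genes, with 5428 of 11160 genes highest there. Among the members of these lists, CER1, HAS2 and CYP26A1 were past 1.5-fold in at least 1 library and the others were not. With the libraries rescaled to their nuclear protein-coding fragments, the Control 2 medians were -0.19 (BMP and TGF-beta), -0.15 (ATF4), -0.06 (definitive endoderm), 0.14 (G2 and M) and 0.15 (retinoic acid). Over all detected genes the Control 2 median was then 0.02. For Control 1 the epithelial median was 0.07, against -0.02 over all detected genes. For Control 3 the medians were -0.09 (G2 and M) and -0.09 (retinoic acid), against 0.004 over all detected genes.

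Broad features of a message also went with the Control 1 values. Split into 4 equal groups by exon length, the detected genes had a median difference of Control 1 from the other libraries of 0.09 for the shortest, then 0.06 and 0.03, and -0.01 for the longest group. Split by the share of G and C bases, the median was nearest 0 in the lowest group, then 0.03, 0.05 and 0.07. The part of length and base content in the single-gene differences of Control 1 was not tested.

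PDX1 itself varied over 11.6 to 17.8 FPKM, and a few genes followed the same order. Among 71 protein-coding genes at 5 FPKM or more whose libraries spanned over 0.5 on the log2 scale, PDX1 included, 42 were highest in Control 2 and 27 had the order of PDX1, Control 2 above Control 1 above Control 3. The 10 genes nearest to PDX1, by the root mean square difference of their 3 centred log2 values, were PTN, MTTP, DHRS3, PRSS12, FAM84A, OXTR, FGB, CDC42EP3, PDE11A and B3GLCT. PTN, a heparin-binding growth factor, was nearest at 0.013, with 12.2 FPKM in Control 2, against 9.5 in Control 1 and 8.05 in Control 3. MTTP, which loads lipid onto apolipoprotein B, came next at 0.025, with 53.6 FPKM in Control 2, against 41.2 in Control 1 and 36.6 in Control 3. With 3 libraries such likeness is a description only.

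How genes overlap in the annotation set a limit on what could be read as absent. Of protein-coding genes that share no exon base with another gene, 5796 of 11057 (52.4%) were detected, and of those sharing up to 10% of their bases 3382 of 4818 (70.2%). Where 50% to 90% was shared, 130 of 608 (21.4%) were detected, and above 90% 0 of 525, of which 329 had no fragment. The highest mean in that last class was 0.735 FPKM. ALDOA, a glycolytic enzyme, shares 53.5% of its exon bases and stood at only 1.13 ± 0.0851 FPKM beside GAPDH at 259 ± 12.8 FPKM. Among the listed lineage genes RNF43 and HBE1 share 73.9% and 90.01%, so their low values are uncertain. The listed genes without a fragment share at most 31.7% of their bases, the value of INS. This does not cover the gene families. Their members share up to 80.5% among HOX genes, 99.0% among chemokines and 100% among claudins. Counts of undetected family members may therefore include genes whose fragments were not assigned.

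**Figure D5:**
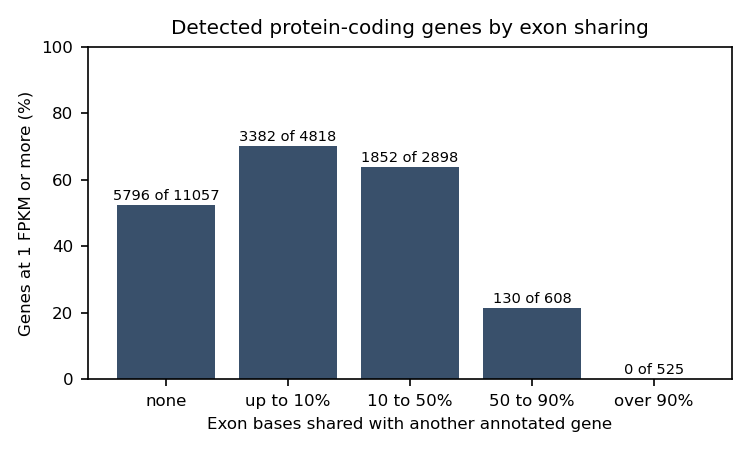
Bars give the percentage of protein-coding genes with a mean of 1 FPKM or more in the untreated libraries, by the share of a gene's exon bases that other annotated genes also cover. Detection falls to 21.4% between 50% and 90% of shared bases, and is 0 of 525 genes above 90%.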

How the data were processed

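Libraries were made from poly-A RNA captured on beads, primed with random hexamers, and read as paired ends, per the labels' protocols. Whether they kept strand is not stated, so overlapping antisense genes cannot be told apart. The authors deposited FPKM per gene. The submitters' processing notes name HISAT2 2.0.5, featureCounts 1.5.0-p3, DESeq2 1.20.0 and the build GRCh38. All 58216 gene IDs used match GENCODE 29 in position and exon length. FPKM times gene length gave whole multiples of 1 step per library, within 1e-06, which gave the fragment totals (35334645 to 38773637).

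The samples were grouped by title, and only the Control columns were used. Chromosome Y and XIST were left out. Levels were described without tests, as 1 group is described: mean and SD of the 3 libraries, detection at a mean of 1 FPKM or more, and each library against the mean of the other 2 on log2(FPKM + 1), counted past 1.5-fold. The lists (29, with 403 entries) and 45 gene families, like the choice of these libraries, were made with earlier results of these data known. Named genes were the 7 markers, list members, the 3 highest of each list and family, the 15 most abundant nuclear protein-coding genes, the 6 highest and 6 lowest per library at 5 FPKM or more, and the 10 nearest to PDX1. Top transcription factors, genes with the promoter repeat, other genes past 1.5-fold were named after their values were seen, as were ALDOA, GAPDH and genes with near-identical copies. A few members are counted but not reported by name here. Alternatives changed the pseudocount, the minimum level, the scaling and the libraries included. Python 3.11.15, pandas 2.3.3, numpy 2.4.6 and matplotlib 3.10.9 were used.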

Additional observations from a re-analysis of the deposited data

Results flagged for a closer look

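Long intergenic non-coding RNAs lay outside the protein-coding genes described above, and 5 of them carried the most signal of their class, far above the floor of 3 fragments. NORAD, a cytoplasmic RNA that binds PUMILIO proteins, averaged 157 FPKM, with 158, 155 and 158 FPKM in Controls 1, 2 and 3. PCAT14 averaged 86.4 FPKM, with 76.8, 87 and 95.3 FPKM. LINC02381, which lies beyond HOXC4 on chromosome 12, averaged 53.5 FPKM and had 66.7 FPKM in Control 2, against 49.4 in Control 1 and 44.4 in Control 3, so Control 2 was its highest library. MALAT1, an abundant nuclear RNA, averaged 52.1 FPKM and had 33.2 FPKM in Control 1, against 61.4 in Control 2 and 61.6 in Control 3, so Control 1 was its lowest library. LINC00348 averaged 36.1 FPKM, with 38.9, 32.6 and 36.9 FPKM. There are no control samples for such a signal within the untreated cells. With 3 libraries no library was examined for standing apart by a rule of spread.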

How the results depend on the processing

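The number of detected protein-coding genes (11160) and of detected genes on the lineage, surface and signalling lists (153) kept within 1.5 times under each setting tried. A minimum of 0.5 FPKM gave 12077 and 173, a minimum of 2 FPKM 9908 and 140, and leaving out 1 library in turn 11133 to 11181 and 151 to 155. The mean of CYP26A1, 27.6 FPKM, rested on Control 2, being 10.3 FPKM without that library, 35.3 FPKM without Control 1 and 37.3 FPKM without Control 3. Counts past 1.5-fold depended on the settings. For Control 1 higher (5), the pseudocount of 0.1 FPKM gave 18, no minimum 8, a minimum of 5 FPKM 1, and leaving out Control 2 or Control 3 gave 10 or 15. For Control 1 lower (20), these were 70 with the pseudocount, 11 with the minimum of 5 FPKM, 12 without Control 2 and 41 without Control 3. Control 2 higher (30) gave 55, 17 and, with single libraries left out, 31 to 41, and Control 2 lower (12) gave 37, 6 and 15 to 16. Control 3 higher (5) gave 12, 0 and 12 to 16, and Control 3 lower (10) gave 39 with the pseudocount, 10 without Control 2 and 31 without Control 1. The cause was not tested, beyond a lower pseudocount weighing low genes more and a higher minimum leaving fewer genes. The median Control 2 difference of liver-type genes was -0.03, and 0.01 with libraries rescaled to nuclear protein-coding fragments. The median Control 1 difference of retinoic acid genes was 0.02, and -0.03 so rescaled. No paired analysis was possible because 1 group is described. Depth limits statements of absence to levels under the floors given for each gene's length.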
